A study of Rattus norvegicus with 12 samples.

Results

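The genes that fuse and divide mitochondria were examined in RNA from the left ventricle of 12 male Sprague-Dawley rats. The members were chosen by gene symbol: Opa1, Mfn1, Mfn2, Dnm1l, Fis1, Mff, Mief1, Mief2, Oma1 and Yme1l1. Of these 10 symbols, 9 had a row of their own among the 34700 genes of the deposited table, and a row under the symbol Yme1l1 was not found. There were 3 rats in each of 4 groups, all operated on at 8 weeks of age. In the Sham group a thread was passed around the left anterior descending coronary artery without tying it. In the HF group the artery was ligated, which causes an infarct and heart failure, and the rats stayed sedentary. The HFE group had the same ligation and ran on a treadmill for 60 min/day on 5 days/week over 8 weeks. The BAIBA group had the same ligation and received β-aminoisobutyric acid, a small molecule that working skeletal muscle releases, through a gastric tube, 75 mg/kg/day for 8 weeks. Hearts were collected 12 weeks after surgery, and the RNA came from the anterior ventricular wall, in the BAIBA group from tissue bordering the infarct. The study describes the site in more than one way, and by its other account the HF tissue also bordered the infarct. Whether the site differed between BAIBA and the other infarcted groups is thus not settled here, and its part in the comparisons was not tested.

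Mitochondria form a network that is continually joined and divided. The outer membranes are fused by the mitofusins Mfn1 and Mfn2, and the inner membranes by Opa1, a related GTPase that also shapes the cristae and is cut by the proteases Oma1 and Yme1l1. Division is carried out by Dnm1l (also called Drp1), a dynamin-like GTPase that is recruited from the cytosol to the outer membrane by Mff, Fis1, Mief1 (MiD51) and Mief2 (MiD49). The heart depends on this machinery because its contraction is powered by a dense store of mitochondria, and loss of the mitofusins or of Dnm1l is known to cause cardiomyopathy in mice. Much of its control acts on the proteins, by phosphorylation, ubiquitination and cleavage, and is not seen in RNA.

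The reads counted on genes numbered between 14812541 and 19732588 per rat, and Mfn1, Opa1, Dnm1l and Fis1 had between 773 and 4668 reads in each library. The 9 cardiomyocyte marker genes found were read in every group, with a summed level of 46929.7 to 48711 library-scaled counts (CPM) in Sham, 40091 to 41314 in HF, 40318 to 46752 in HFE and 39496 to 46964 in BAIBA. The HF rats and the HFE rats all lay below the Sham rats in that sum, and BAIBA overlapped Sham. A sum follows its most highly read genes, and the single markers went both ways. Their median log2 fold change was -0.05 in HF against Sham (-0.62 to 0.08) and 0.22 in HFE against Sham (-0.73 to 0.30). The median over all genes was 0.01 in both, and none of the 9 markers was called. In bulk tissue, fewer cells of a type and less RNA per cell cannot be told apart. The summed level of 6 macrophage markers was lower in HFE (68.7 to 96.2 CPM) than in any Sham rat (121 to 141 CPM), and that of 4 epicardial and mesothelial markers was higher in BAIBA (24.1 to 75.6 CPM) than in any Sham rat (18.0 to 22.4 CPM). The macrophage sum was also higher in BAIBA (118 to 249 CPM) and in HF (99.1 to 189 CPM) than in any HFE rat. The epicardial and mesothelial sum in BAIBA was also above every HFE rat (19.0 to 23.5 CPM) and overlapped HF (21.6 to 24.5 CPM). The summed level of 5 erythroid markers was 905 to 1304 CPM in BAIBA, above every Sham rat (539.7 to 780.0 CPM) and every HFE rat (721 to 827 CPM), while HF (501 to 1123 CPM) overlapped both BAIBA and Sham. The summed level of 4 atrial markers ranged from 12.3 CPM in a BAIBA rat to 538 CPM in an HF rat, and the groups overlapped in this sum. Taken singly, the 4 atrial markers were lower in BAIBA against Sham, with a median log2 fold change of -2.92 (-5.82 to -1.15). Their lowest edgeR adjusted p there was 0.0695, so none was called. No gene of these lists was at 0 in all rats, and the part of these differences in the results was not tested except where a value is given.

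The fusion and division genes did not differ between the groups at the threshold used for a differentially expressed gene (DEG), which was a Benjamini-Hochberg adjusted p under 0.05 together with a log2 fold change over 1 in size. edgeR's quasi-likelihood test called 0 of the 9 members in each of 6 comparisons, and 0 in a test for any difference among the 4 groups. DESeq2 and limma also called 0 members in each of the 6 comparisons. Few genes of any kind were called by the same test, namely 0 (0%) in HF against Sham, 0 (0%) in HFE against HF, 0 (0%) in BAIBA against HF, 12 (0.0808%) in BAIBA against HFE, 0 (0%) in HFE against Sham and 6 (0.0402%) in BAIBA against Sham. DESeq2 called 19 to 170 genes in these comparisons. With the rat number as a block, 32 genes and 0 members were called in BAIBA against HFE. In the test over all 4 groups, 0 of 15617 genes (0%) passed adjustment, while 1517 genes (9.71%) and 1 member, Mfn1, had an unadjusted p under 0.05. A missed threshold does not show that the groups were alike, and the intervals of the differences are given with each gene.

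The members spanned a wide range of levels. Levels between genes were compared as FPKM, which divides by transcript length. Mfn1 was the most abundant, with a mean of 54.2 FPKM over the 12 rats and a range of 46.7 to 61.9. Fis1 followed at 42.5 (35.9 to 48.4), Opa1 at 37.4 (30.8 to 46.6), Mief2 at 27.6 (15.0 to 35.3) and Dnm1l at 26.3 (21.2 to 32.0). These 5 genes had more reads per length than 89.4% to 95.1% of the 19074 genes with a mean of at least 0.1 FPKM. A second set lay lower, with Mff at a mean of 6.89 FPKM (median 1.60), Mief1 at 6.67, Mfn2 at 6.42 and Oma1 at 5.39. Mfn1 exceeded Fis1 in 12 of 12 rats, Fis1 exceeded Opa1 in 8 and Opa1 exceeded Mief2 in 10. Mff, whose mean was set by a few rats, exceeded Mief1 in 2 of 12. Mief2 and Dnm1l held no fixed order, since Mief2 was the higher in 6 of 12 rats. Mief1 was above Mfn2 in 7 rats and Mfn2 above Oma1 in 7, so the lower ranks were not separated beyond the spread between rats.

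**Figure D1:**
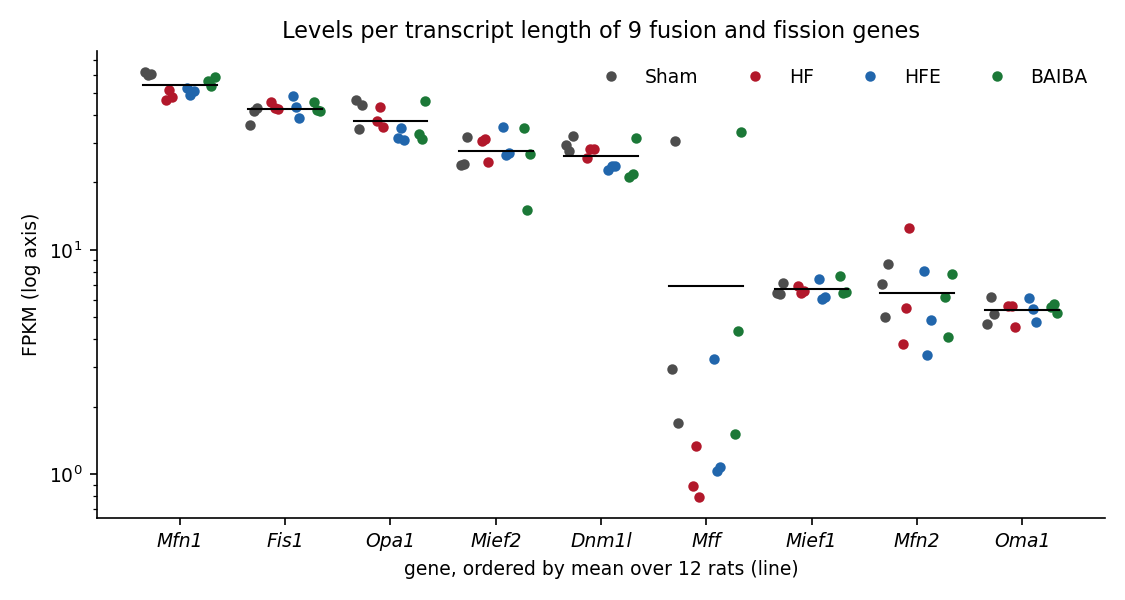
FPKM (log axis) of 9 mitochondrial fusion and fission genes in 12 rats, 1 point per rat, colored by group, with a line at the mean over all rats. Mfn1, Fis1, Opa1, Mief2 and Dnm1l lie above the other genes in most rats, and Mff alone spreads from 0.797 to 33.3 FPKM.

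How far rats of the same group differed also separated the members. The within-group SD of log2 CPM was 0.08 for Mfn1, 0.08 for Mief1 and 0.09 for Fis1, against a median of 0.24 over the genes tested. Only 2.87%, 3.34% and 4.44% of the genes tested had a smaller SD than these 3 genes. These shares are over genes of every level, and shares among genes of similar level were not computed. Oma1 (0.15), Dnm1l (0.20) and Opa1 (0.23) lay below the median of all genes and Mief2 (0.32) above it. Mfn2 varied more, at 0.63, and Mff at 1.63, where 98.9% of genes had a smaller SD.

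**Figure D2:**
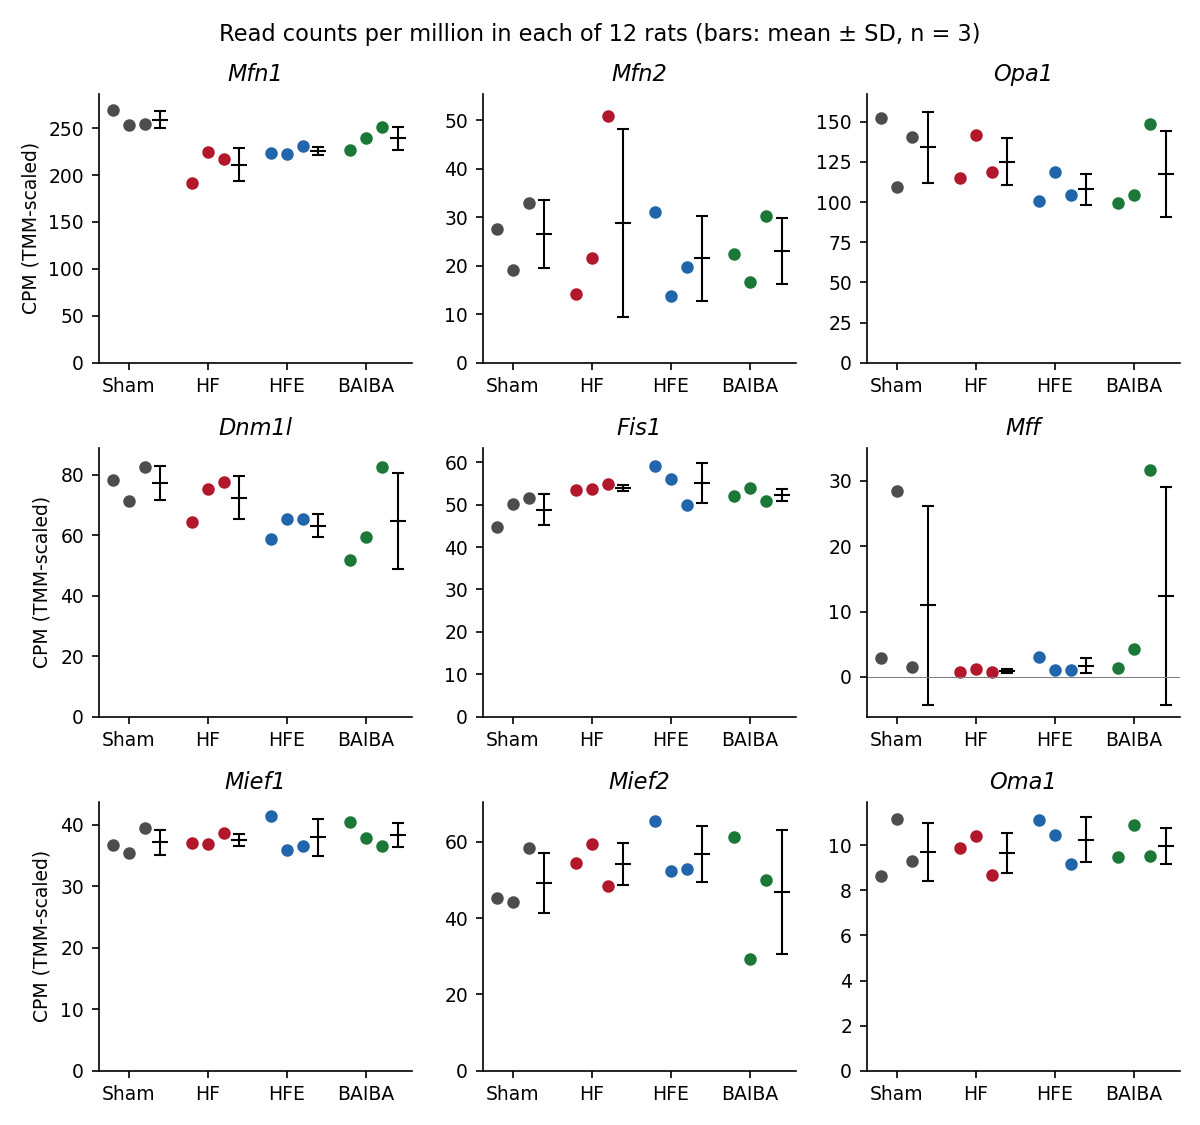
CPM of each of 9 genes in each rat, with group means ± SD (n = 3) to the right of the points and all axes including 0. For Mfn1, the 3 Sham rats lie above all other rats, while most other genes overlap between the groups and single rats carry the high values of Mff and Mfn2.

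Mfn1, the outer-membrane fusion GTPase that tethers adjoining mitochondria, had the clearest pattern across groups. The Sham rats had 269, 253 and 255 CPM, and the HF rats had 191, 225 and 217 CPM. The HFE rats had 223, 222 and 231 CPM, and the BAIBA rats had 227, 239.5 and 251 CPM. Every infarcted rat was thus below the lowest Sham rat, although the highest BAIBA rat was close to it. The Mfn1 level averaged 259 ± 8.98 CPM in Sham and 211 ± 17.3 CPM in HF (SD, n = 3), a log2 fold change of -0.30 (SE 0.09, 95% confidence interval -0.52 to -0.08) or -18.7%. Its unadjusted p was 0.0141 and its adjusted p was 0.805 by edgeR's quasi-likelihood test, so it did not pass. The exact permutation test (two-sided) gave p = 0.1, the smallest value that 3 rats against 3 allow.

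Against the same Sham rats, the Mfn1 level was lower in HFE, with no overlap between the rats (log2 fold change -0.20, interval -0.35 to -0.05, edgeR adjusted p = 0.356). It was also below Sham in BAIBA with no overlap (-0.11, interval -0.31 to 0.09, edgeR adjusted p = 0.846). These 3 comparisons share the Sham rats and are not independent of each other. In BAIBA against HF the Mfn1 level was higher in each treated rat than in any HF rat, with a log2 fold change of 0.18 (interval -0.07 to 0.43, edgeR adjusted p = 0.851). HFE and HF overlapped (0.09, interval -0.10 to 0.29). In the test over the 4 groups Mfn1 had F = 4.78, an unadjusted p of 0.0209 and an edgeR adjusted p of 0.448. That adjusted p was 0.074 with DESeq2 and ranged from 0.074 to 0.704 over 19 other settings, and Mfn1 passed in none of them.

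The Mfn1 level was also set against mitochondrial and cardiomyocyte genes of the same libraries. Per 1000 CPM of 11 genes of general mitochondrial content, Mfn1 was 19.5 to 21.9 in Sham, 16.5 to 18.8 in HF and 17.8 to 18.2 in HFE, so HF and HFE were below Sham without overlap. BAIBA, at 19.2 to 22.2, overlapped Sham on this scale. Per 1000 CPM of cardiomyocyte markers, Mfn1 was 5.30 to 5.53 in Sham, 4.78 to 5.43 in HF, 4.75 to 5.54 in HFE and 5.10 to 5.74 in BAIBA, and all 3 infarcted groups overlapped Sham.

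Mfn2, the other mitofusin, which also links mitochondria to the endoplasmic reticulum, was lower and less steady. The Sham rats had 27.5, 19.1 and 33.0 CPM, the HF rats 14.1, 21.7 and 50.8 CPM, the HFE rats 31.0, 13.8 and 19.8 CPM, and the BAIBA rats 22.4, 16.5 and 30.2 CPM. HF rat 3 was the highest and the groups overlapped throughout. The Mfn2 log2 fold change of HF against Sham was 0.12 (interval -1.10 to 1.34, edgeR adjusted p = 0.986), and it was -0.57 without HF rat 3. A second row listed as mitofusin-2-like, LOC100911485, held 0 to 2 reads per rat, so at least 99.2% of the reads of both rows were on Mfn2. Mfn1 exceeded Mfn2 by 3.85 to 14.5 times in FPKM over the 12 rats.

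Opa1 fuses the inner membranes and holds the cristae junctions. Its level was 152, 109 and 141 CPM in Sham, 115, 142 and 119 CPM in HF, 101, 119 and 104 CPM in HFE, and 99.3, 105 and 148 CPM in BAIBA. No pair of groups was free of overlap in CPM. In FPKM, every HFE rat (30.8 to 34.9) was below every HF rat (35.1 to 43.3). Per 1000 CPM of cardiomyocyte markers the same held (2.24 to 2.54 against 2.87 to 3.43). Per 1000 CPM of mitochondrial content genes, HFE and HF overlapped. The lowest mean was in HFE, at 108 ± 9.51 CPM against 134 ± 22.3 CPM in Sham (SD, n = 3). That difference had a log2 fold change of -0.31 (SE 0.14, interval -0.62 to 0.00, edgeR unadjusted p = 0.0522 and adjusted p = 0.453).

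Dnm1l is the GTPase that constricts mitochondria until they divide. It was read at 78.1, 71.1 and 82.5 CPM in Sham, 64.2, 75.2 and 77.5 CPM in HF, 58.9, 65.4 and 65.2 CPM in HFE, and 51.9, 59.5 and 82.6 CPM in BAIBA. All 3 HFE rats were below all 3 Sham rats, and BAIBA held both the lowest and the highest rat of the series in CPM. The highest BAIBA and Sham rats were nearly level, and in FPKM Sham rat 3 (32.0) was above BAIBA rat 3 (31.5). The Dnm1l log2 fold change of HFE against Sham was -0.29 (SE 0.09, interval -0.49 to -0.08) or -18.0%, with an edgeR unadjusted p of 0.0125 and an adjusted p of 0.331. It was -0.35 to -0.23 over all settings, and its adjusted p was between 0.218 and 0.628. HFE was also below Sham per 1000 CPM of mitochondrial content genes (4.79 to 5.24 against 5.49 to 6.65) and of cardiomyocyte markers (1.40 to 1.46 against 1.49 to 1.76). On both scales every HFE rat was also below every HF rat (5.89 to 6.30 and 1.60 to 1.93 in HF), and likewise in FPKM. In CPM the HFE and HF rats overlapped. Against HF, Dnm1l was -0.20 in HFE (interval -0.43 to 0.04) and -0.16 in BAIBA (interval -0.57 to 0.25). The value of Dnm1l in BAIBA against HF was -0.38 without BAIBA rat 3 and -0.0218 without BAIBA rat 1.

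Opa1 and Dnm1l, on opposite sides of the balance between fusion and division, varied together from rat to rat. Pearson's r of their log2 CPM over the 12 rats was 0.861 (permutation p = 0.00033) and Spearman's rho was 0.902 (permutation p = 0.0001). This was the strongest of 36 pairs among the 9 members, and Benjamini-Hochberg adjustment over the 36 pairs gave p = 0.0119 for r and p = 0.0036 for rho. The r was 0.833 without the 2 rats farthest from the median of Opa1 and 0.824 with the group means removed. The next strongest pair was Mfn1 and Fis1, at r = -0.645 (permutation p = 0.026, adjusted p = 0.46 over the 36 pairs). All values of a rat come from 1 library and share its scaling. Of the 11810 genes with a symbol and a mean of at least 1 FPKM, 25 had a higher r with Opa1 than Dnm1l had, a count that includes Opa1 itself. In FPKM the ratio of Opa1 to Dnm1l lay between 1.25 and 1.59 in the 12 rats, with group means of 1.41 ± 0.17 in Sham, 1.41 ± 0.15 in HF, 1.39 ± 0.09 in HFE and 1.48 ± 0.07 in BAIBA (SD, n = 3).

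**Figure D3:**
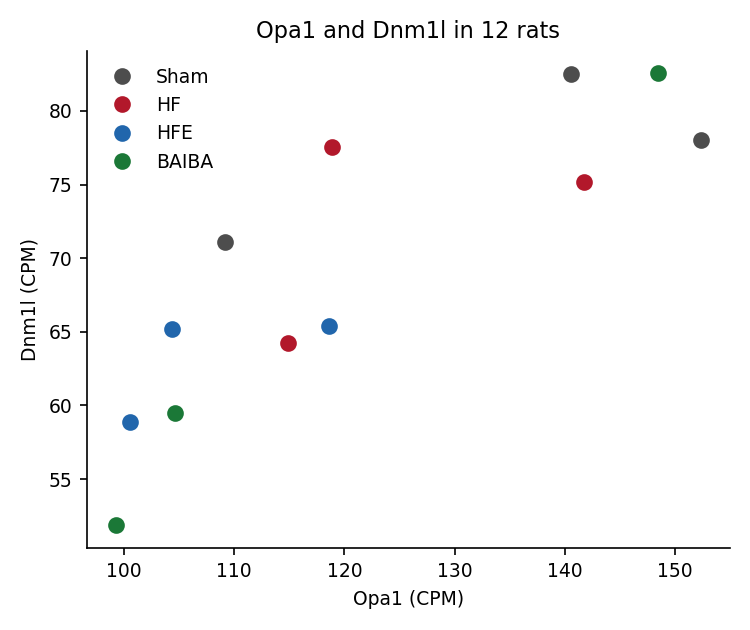
Dnm1l against Opa1 in CPM, 1 point per rat, colored by group. The points rise from 99.3 CPM of Opa1 and 51.9 CPM of Dnm1l in a BAIBA rat to 152 and 78.1 CPM in a Sham rat, and rats of each group are spread along the trend (r = 0.861, n = 12).

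The genes whose log2 CPM followed these GTPases most closely over the 12 rats were also listed. For Opa1 they were Ubr3 (r = 0.956), Arl5a (0.921) and the cardiac ryanodine receptor Ryr2 (0.915). For Dnm1l they were the mitochondrial chaperone Hspa9 (0.958), Dnajc28 (0.948) and the kinase subunit Csnk2a1 (0.941). Mfn2 was closest to Ankrd40 (0.941), Foxo4 (0.865) and Sbds (0.854). Mfn1 was closest to the pyruvate dehydrogenase phosphatase Pdp1 (0.851), the stress kinase Mapk9 (0.850) and Gmps (0.834). These values are the highest per gene among the 11810, the gene itself left out, and are descriptions only.

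The 250 bases before the transcription start are shown for the correlated pair and for Mfn1, from RefSeq on the GRCr8 build, 5′ to 3′ on the strand of the gene. Entries were matched by symbol for 9 of the 10 members, all but Mfn2. Capitals mark matches on either strand to any of 7 motifs: CCGGAAG (ETS core), GCGCANGCG (NRF1), AAGGTCA (ERR site), TGACGTCA (CRE), CACGTG (E-box), CCAAT and GGGCGG (GC box).
Opa1 (chr11:84689901-84690150, reverse strand): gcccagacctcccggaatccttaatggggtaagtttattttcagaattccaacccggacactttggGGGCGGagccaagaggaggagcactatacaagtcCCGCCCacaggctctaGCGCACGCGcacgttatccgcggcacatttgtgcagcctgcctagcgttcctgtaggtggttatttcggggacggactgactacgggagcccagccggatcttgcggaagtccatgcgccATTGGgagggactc
Dnm1l (chr11:98085147-98085396, forward strand): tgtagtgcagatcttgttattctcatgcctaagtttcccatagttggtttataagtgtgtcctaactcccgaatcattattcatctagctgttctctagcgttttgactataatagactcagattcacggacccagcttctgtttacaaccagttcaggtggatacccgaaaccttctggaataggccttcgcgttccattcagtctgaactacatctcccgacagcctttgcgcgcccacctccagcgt
Mfn1 (chr2:117241508-117241757, forward strand): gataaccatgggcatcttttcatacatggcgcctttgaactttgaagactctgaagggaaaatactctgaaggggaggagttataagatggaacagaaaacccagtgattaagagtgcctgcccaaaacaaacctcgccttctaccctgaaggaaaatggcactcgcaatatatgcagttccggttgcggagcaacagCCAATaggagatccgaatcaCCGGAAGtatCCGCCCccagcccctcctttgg
Opa1 held the NRF1 motif 134 to 126 bases before the start, as did 5.09% of the 33469 promoters of the table. It also held 2 GC boxes, a motif of 30.5% of promoters, and 1 CCAAT box, found in 34.0%. None of the 7 motifs was present in this window of Dnm1l, so the correlated pair shared none of them. Mfn1 held the ETS core 32 to 26 bases before the start, as did 7.27% of promoters, beside a CCAAT box and a GC box. In any entry of the 9 members that have one, GC boxes were found in 8, CCAAT boxes in 5 and the ERR site in 0, against 3.99% of promoters. No 2 marked matches overlap in the windows shown. These matches describe the letters in the window and say nothing of binding.

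Among the proteins that bring Dnm1l to the outer membrane, Fis1 was the most abundant. It had 44.8, 50.1 and 51.6 CPM in Sham, 53.5, 53.7 and 54.8 CPM in HF, 59.1, 56.1 and 49.9 CPM in HFE, and 52.1, 53.8 and 50.9 CPM in BAIBA. The HF rats were closely grouped and all above the Sham rats in CPM. In FPKM the 2 groups overlapped, with HF rat 3 at 42.4 and Sham rat 3 at 42.7. The Fis1 log2 fold change of HF against Sham was 0.14 (SE 0.08, interval -0.05 to 0.33, edgeR adjusted p = 0.814), and HFE (0.18, interval -0.04 to 0.40) and BAIBA (0.10, interval -0.11 to 0.32) overlapped Sham.

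Mief1, an adaptor that anchors Dnm1l, varied least between the groups. Its range over the 12 rats was 35.4 to 41.3 CPM, and the group means were 37.1 ± 2.05 in Sham, 37.5 ± 1.02 in HF, 37.9 ± 2.98 in HFE and 38.2 ± 1.96 in BAIBA (SD, n = 3). The 95% confidence intervals of its 6 comparisons all lay within -0.22 to 0.27 on the log2 scale. Its paralog Mief2 was more variable, with 45.2, 44.3 and 58.3 CPM in Sham, 54.5, 59.5 and 48.5 CPM in HF, 65.4, 52.3 and 52.9 CPM in HFE, and 61.3, 29.2 and 49.9 CPM in BAIBA. BAIBA rat 2 was the lowest of the series and the groups overlapped. The Mief2 log2 fold change of HFE against Sham was 0.21 (interval -0.11 to 0.53, edgeR adjusted p = 0.604). Mief2 exceeded Mief1 by 2.33 to 4.86 times in FPKM.

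Mff, the main receptor for Dnm1l in many cell types, was read unevenly. It had 2.83, 28.5 and 1.58 CPM in Sham, 0.803, 1.29 and 0.794 CPM in HF, 3.06, 1.04 and 1.08 CPM in HFE, and 1.34, 4.30 and 31.6 CPM in BAIBA. Sham rat 2 and BAIBA rat 3, with 439 and 524 reads, stood far above all others, which had 14 to 67 reads. The HF rats were below every Sham rat and every BAIBA rat. The Mff log2 fold change was -3.50 in HF against Sham (interval -6.61 to -0.39, edgeR unadjusted p = 0.0334 and adjusted p = 0.805) and 3.68 in BAIBA against HF (interval 0.59 to 6.77, unadjusted p = 0.0271 and adjusted p = 0.851). Without Sham rat 2 the first value was -1.20, and without BAIBA rat 3 the second was 1.55.

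A second row, LOC102556337, is described in the deposited table as mitochondrial fission factor-like, and it was looked at after the values of Mff were seen. It had 3.63, 2.40 and 2.17 CPM in Sham, 1.43, 3.25 and 27.6 CPM in HF, 29.0, 15.2 and 13.7 CPM in HFE, and 38.1, 2.31 and 3.56 CPM in BAIBA. All 3 HFE rats were above all 3 Sham rats. Its log2 fold change of HFE against Sham was 2.81 (SE 0.36, interval 1.94 to 3.68), with an edgeR unadjusted p of 0.000137 and an adjusted p of 0.121, so it did not pass.

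The reads that fell on Mff made up between 2.80% and 92.2% of the reads of both rows, depending on the rat. Where near-identical copies exist, the counting can split reads between them, but how alike these 2 rows are in sequence was not tested. How reads with several matches were counted is not given in the sources used here. The level of either row alone is uncertain, and a split of reads was not tested. Summed, the pair had 6.46, 30.9 and 3.74 CPM in Sham, 2.24, 4.54 and 28.4 CPM in HF, 32.0, 16.3 and 14.8 CPM in HFE, and 39.5, 6.61 and 35.2 CPM in BAIBA. The sum still ranged widely within Sham, HF and BAIBA, and all groups overlapped. With the reads summed, HFE against Sham turned from -2.64 for Mff alone to 0.64 for the sum, HF against Sham from -3.50 to -0.22, and BAIBA against HF from 3.68 to 1.20, and none of these passed (edgeR adjusted p = 0.839, 0.991 and 0.891 for the sums).

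**Figure D4:**
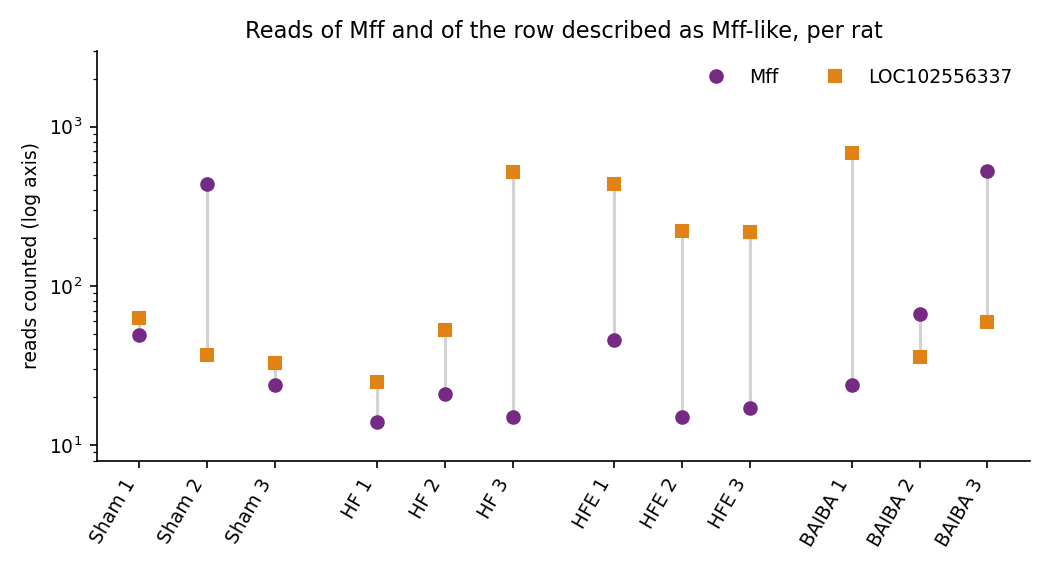
Reads counted on Mff and on LOC102556337 in each rat (log axis), joined by a line for each rat. Mff is high in Sham rat 2 and BAIBA rat 3, whereas LOC102556337 is high in HF rat 3, all 3 HFE rats and BAIBA rat 1, and no rat is high in both.

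Oma1, the stress-activated protease that cuts Opa1, was the least abundant member with steady values. It had 8.65, 11.2 and 9.32 CPM in Sham, 9.86, 10.4 and 8.69 CPM in HF, 11.1, 10.5 and 9.18 CPM in HFE, and 9.48, 10.9 and 9.53 CPM in BAIBA. The groups overlapped in each comparison, and the log2 fold changes lay between -0.04 and 0.08. For HF against Sham the Oma1 difference was -0.01 (interval -0.36 to 0.34). The other protease, Yme1l1, could only be followed through 2 rows with the symbol LOC108348078, both described as YME1L1 and found after the values were seen. The first (ENSRNOG00000017100) held 0 or 1 read per rat. The other (ENSRNOG00000055012) had 17.0, 10.4 and 5.65 CPM in Sham, 6.99, 7.18 and 0.900 CPM in HF, 10.6, 2.35 and 4.24 CPM in HFE, and 1.84, 17.9 and 22.4 CPM in BAIBA. These values overlapped between the groups and spread more within them than 98.5% of the genes tested, and their differences did not pass (edgeR adjusted p from 0.639 to 0.966). Whether these reads stand for the whole of Yme1l1 was not tested.

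Over the members together, the differences lay on both sides of 0 and no member passed in any comparison. In HF against Sham, 5 of 9 members had a log2 fold change below 0, as did 48.1% of all genes tested, and the median was -0.01 against 0.01 over all genes. An unadjusted p under 0.05 was reached by 2 members, Mfn1 and Mff, and by 6% of genes. The rats of the groups did not overlap in CPM for 3 members (Mfn1, Mff and Fis1) and for 11.8% of genes, although Fis1 overlapped in FPKM. In HFE against Sham the median of the members was -0.20 against 0.01 over all genes, and an unadjusted p under 0.05 was reached by 2 members, Mfn1 and Dnm1l, and by 11.2% of genes. These 2 members were free of overlap, as were 17.7% of genes. In BAIBA against Sham the median was -0.06 against 0.00, with 0 members and 7.41% of genes at an unadjusted p under 0.05, and 1 member (Mfn1) and 12.7% of genes free of overlap.

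The treated groups were also set against HF and against each other. In BAIBA against HF, 1 member (Mff) and 5.55% of genes had an unadjusted p under 0.05, and 2 members (Mfn1 and Mff) and 11.4% of genes were free of overlap. Both were higher in BAIBA, as were 6.01% of genes. In HFE against HF, 0 members and 7.62% of genes reached an unadjusted p under 0.05. In CPM, 0 members and 14.4% of genes were free of overlap. In FPKM, every HFE rat was below every HF rat for Dnm1l (22.6 to 23.7 against 25.6 to 28.2). The same held for Opa1 (30.8 to 34.9 against 35.1 to 43.3). In BAIBA against HFE, 0 members and 9.57% of genes reached an unadjusted p under 0.05, and 0 members and 15.5% of genes were free of overlap in CPM. In FPKM, every BAIBA rat was above every HFE rat for Mfn1 (53.6 to 58.6 against 49.1 to 52.5). The share of all genes free of overlap is given for CPM only. Leaving aside Mff, the log2 fold changes of the members in the 6 comparisons lay between -0.42 and 0.21.

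**Figure D5:**
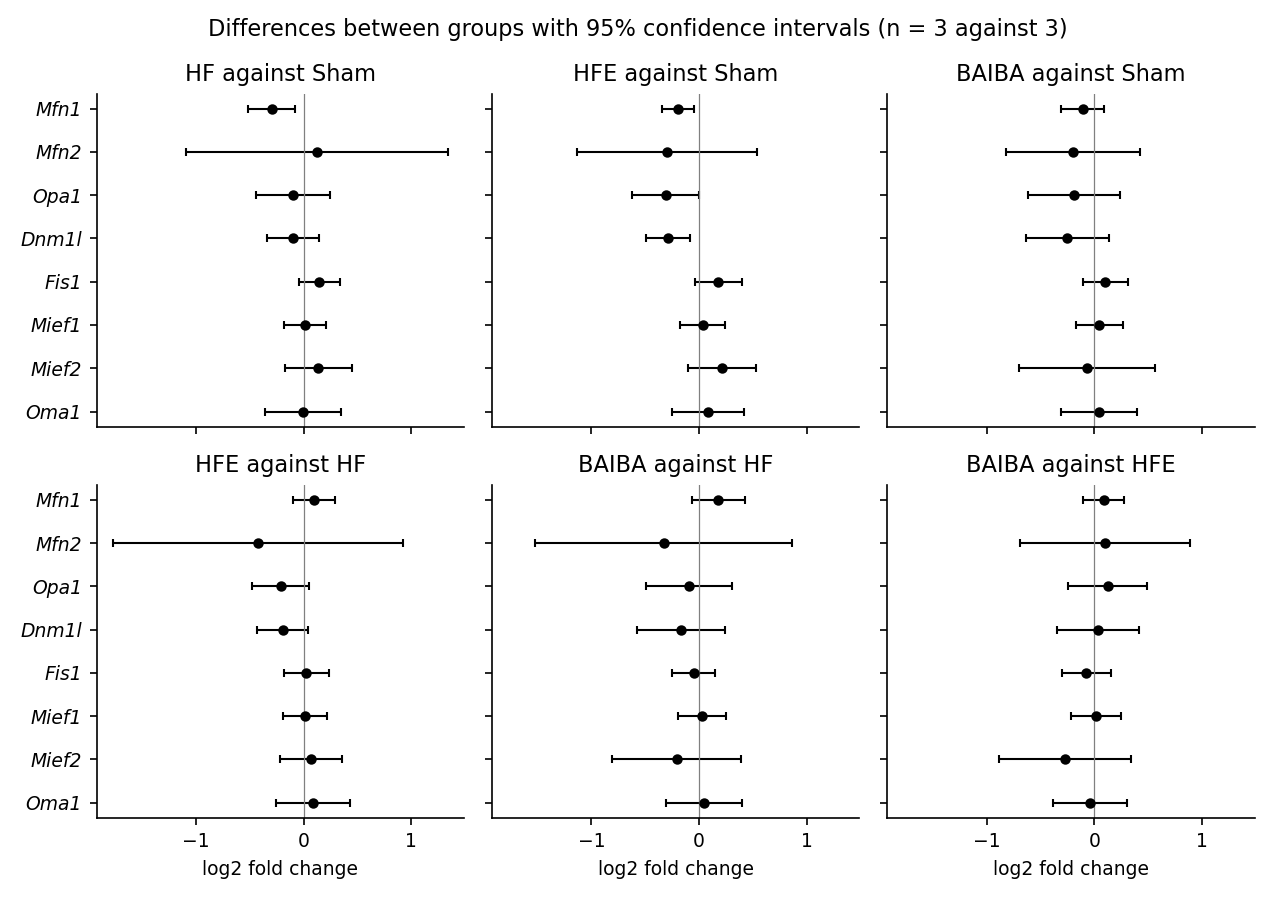
Log2 fold changes of 8 members in 6 comparisons between groups, with 95% confidence intervals from edgeR (3 rats against 3). Mff is not drawn because its intervals are several times wider. The intervals for Mfn1 exclude 0 in HF and HFE against Sham and that for Dnm1l in HFE against Sham, before any adjustment for the number of genes.

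Genes that work around this machinery were likewise not called. Genes were taken from 6 lists, and edgeR's quasi-likelihood test called 0 genes of each in each of the 6 comparisons and 0 in the test over the 4 groups, where 0 of 61 genes also had an unadjusted p under 0.05. DESeq2 and limma called 0 of them as well, with 3 genes each at an unadjusted p under 0.05 over the 4 groups. In the comparisons of 2 groups the genes at an unadjusted p under 0.05 numbered 0 to 6 by edgeR, which gave the same to 5.55% to 11.2% of all genes, 0 to 4 by DESeq2 and 0 to 10 by limma. The highest of these counts, 10 of 61, was that of limma in HFE against Sham, where edgeR had 6 of 60 beside 11.2% of all genes. The share over all genes is given for edgeR only, so the counts of DESeq2 and limma cannot be set against one. From each list the gene with the smallest p over the 4 groups is given. Among 14 accessory factors of fusion and division it was Miga2, which promotes fusion at the outer membrane, with 64.7 ± 6.21 CPM in Sham, 78.9 ± 8.84 in HF, 83.7 ± 10.4 in HFE and 77.2 ± 8.06 in BAIBA (SD, n = 3, edgeR unadjusted p = 0.0595, adjusted p = 0.525). Among 9 genes of the cristae organizing complex it was Chchd3, with 211 ± 9.76 CPM in Sham, 184 ± 7.42 in HF, 201 ± 9.04 in HFE and 220.2 ± 25.6 in BAIBA (adjusted p = 0.544 by edgeR). Among 11 genes of the ubiquitin and phosphorylation control of the GTPases it was Ppp3cb, a catalytic subunit of calcineurin, the phosphatase that activates Dnm1l, with 77.7 ± 0.767 CPM in Sham, 68.0 ± 3.96 in HF, 67.7 ± 4.33 in HFE and 68.2 ± 4.83 in BAIBA (adjusted p = 0.554 by edgeR). Sham was the highest mean for Ppp3cb and the lowest for Miga2.

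The remaining lists gave the same count of 0. Clpp, a matrix protease, led the 10 inner-membrane proteases and scaffolds (edgeR unadjusted p = 0.241), and Kif5b, a motor that carries mitochondria along microtubules, led the 6 transport genes (unadjusted p = 0.149). Cox4i1, a subunit of cytochrome c oxidase, led the 11 genes of mitochondrial content, at 919 ± 80.6 CPM in Sham, 894 ± 24.5 in HF, 1037 ± 26.9 in HFE and 899.5 ± 60.9 in BAIBA (SD, n = 3, edgeR adjusted p = 0.554). The median log2 fold change of the content list in HF against Sham was -0.08, against 0.01 over all genes, with 11 of 11 genes between -0.15 and -0.03. The lowest edgeR adjusted p of these genes there was 0.808. In HFE against Sham the median of the list was 0.02 (-0.20 to 0.18), against 0.01 over all genes. In BAIBA against Sham it was -0.10 (-0.22 to 0.01), against 0.00.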

How the data were processed

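Members, gene lists and tests were chosen with earlier results of these data known. Per the study's methods, the authors trimmed and aligned the reads (HISAT2), added assembled transcripts (StringTie, Gffcompare) and counted reads per gene with featureCounts. The authors deposited these counts without normalization, and FPKM values made from them. Tool versions, annotation release and strand setting are not given in the sources used here. The processing notes name mm9, a mouse build, although the gene identifiers are those of rat. The design text counts 3 conditions where the labels name 4 groups, and the labels were followed.

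The counts were tested in R 4.3.3 with edgeR 4.0.16 (TMM, filterByExpr, robust quasi-likelihood fits) on the 2 groups compared, and over all 12 rats for the 4 groups. Adjustment was Benjamini-Hochberg over all genes tested. CPM used TMM factors over the 12 rats. Single genes were also compared by exact permutation of log2(CPM + 0.1), and correlations by 100000 permutations. The fits were tested on simulated data. Alternatives were RLE and library-size scaling, no filter, no limit on the fold change, DESeq2 1.42.0, limma 3.58.1 on log2(FPKM + 1), all 12 rats in 1 fit, a block for the rat number, each rat left out and, added later, summed reads of copies. The labels number the rats of each group, and a shared number does not mean a shared animal. Their deviations from the group means correlated in each pair of BAIBA against HFE (0.118 to 0.226), so the blocked count is given there. The genes named were the members, in each list the genes called or else that with the smallest p over the 4 groups, and the 3 genes most correlated with each GTPase. Rows with LOC symbols were named after their values were seen.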

Additional observations from a re-analysis of the deposited data

How the results depend on the processing

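No alternative made a member a DEG. The lowest adjusted p of any member in a comparison of 2 groups was 0.218, over edgeR, DESeq2, limma and the other settings, and over the 4 groups it was 0.074 (Mfn1, DESeq2). Of the recomputed log2 fold changes of the 9 members, 759 kept their direction and 51 turned it, the latter in 23 of 54 results, none of which had passed. With library-size scaling the sign turned for Mief1 in HF against Sham (-0.00493), HFE against HF (-0.0163) and HFE against Sham (-0.0212), for Fis1 in HFE against HF (-0.00692) and for Oma1 in BAIBA against HFE (0.0140). With limma it turned for Mfn2 in HF against Sham (-0.0470), for Mief1 in HF against Sham (-0.00423), HFE against HF (-0.0174) and HFE against Sham (-0.0216), for Fis1 in HFE against HF (-0.0109) and for Oma1 in BAIBA against HFE (0.0152). With the reads of both rows summed, an alternative chosen after seeing the data, Mff in HFE against Sham was 0.64. The cause of these turns was not tested. Leaving out each rat in turn, the results with a turned sign ranged in HF against Sham from -0.0779 to 0.10 for Oma1, -0.57 to 0.45 for Mfn2, -0.0217 to 0.0647 for Mief1 and -0.23 to 0.0109 for Opa1. In HFE against HF they ranged from -0.78 to 0.26 for Mfn2, -0.0499 to 0.0474 for Mief1, -0.0429 to 0.14 for Mief2 and -0.0263 to 0.0939 for Fis1. In BAIBA against HF they ranged from -0.0258 to 0.10 for Oma1, -0.65 to 0.37 for Mfn2, -0.00798 to 0.0617 for Mief1, -0.45 to 0.0385 for Mief2 and -0.29 to 0.0199 for Opa1. In BAIBA against HFE they ranged from -0.12 to 0.0234 for Oma1, -0.14 to 0.46 for Mfn2, -0.0324 to 0.0811 for Mief1, -0.0752 to 0.23 for Opa1 and -0.18 to 0.17 for Dnm1l. In HFE against Sham they ranged from -0.0317 to 0.0813 for Mief1. In BAIBA against Sham they ranged from -0.0333 to 0.15 for Oma1, -1.96 to 2.48 for Mff and -0.31 to 0.17 for Mief2. Those of Mfn2 in the comparisons with HF turned without HF rat 3 and, in HF against Sham, also without Sham rat 2. Of the 31 results whose sign never turned, 25 moved by over 1.5 times in size when 1 rat was left out.

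The number of DEGs among all genes moved more. DESeq2 called 24 in HF against Sham, 19 in HFE against HF, 29 in BAIBA against HF, 170 in BAIBA against HFE, 72 in HFE against Sham, 78 in BAIBA against Sham and 333 over the 4 groups. Without the filter on low counts the numbers were 2 in HFE against HF, 2 in BAIBA against HF, 30 in BAIBA against HFE, 25 in HFE against Sham, 30 in BAIBA against Sham and 2 over the 4 groups. A fit of all 12 rats called 1 in BAIBA against HF, 3 in BAIBA against HFE and 0 in BAIBA against Sham. Library-size scaling called 7 in BAIBA against HFE and 4 over the 4 groups, and limma called 2 in BAIBA against HFE. Leaving out 1 rat, the number ranged from 0 to 4 in HF against Sham, 0 to 4 in BAIBA against HF, 3 to 20 in BAIBA against HFE, 0 to 4 in HFE against Sham, 4 to 16 in BAIBA against Sham and 0 to 10 over the 4 groups. It was 20 without BAIBA rat 1, 16 without BAIBA rat 2 and 10 without HF rat 1.

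With the rat number as a replicate block, 32 genes were called in BAIBA against HFE, 1 in HFE against Sham and 5 over the 4 groups, and no call on a member changed. Under the block Mfn2 in HF against Sham was -0.0400 and Mff in BAIBA against Sham was -0.13, both with the sign turned. Outside BAIBA against HFE the numbers showed no pairing, since same-numbered rats correlated between -0.08 and 0.12 in their deviations from the group means.

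The reads behind Oma1 (142 to 172 per rat) and Mff (14 to 524) limit the precision of their levels, and 3 rats a group limit that of every difference.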
